A study of Mus musculus with 7 samples.

Results

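The 30 genes described here encode the enzymes and regulators of cholesterol and fatty acid synthesis, 21 for cholesterol and 9 for fatty acids. They were chosen by mouse symbol, and all 30 were found among the 48795 genes of the count table and passed the filter on low counts, which left 15934 genes for testing. RNA was sequenced from primary mouse oligodendrocyte precursor cells (OPCs), the glial cells that divide and mature into myelin-forming oligodendrocytes. All cells were wild type and came from CD-1 pups at postnatal days 4 to 7, with both sexes equally represented. The PE group was given phenylephrine, which stimulates α1-adrenergic receptors, for 1 hour at a dose of 20 µM and has 3 libraries, numbered 2, 3 and 4. The control group had no treatment, with no vehicle named, and has 4 libraries, numbered 1 to 4. PE and control libraries with the same number share a code in their titles and are called pairs 2, 3 and 4 below, and control 1 has no partner. The labels do not say whether a number stands for an animal, a litter or a culture.

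Cholesterol is built from acetyl-CoA through mevalonate, squalene and lanosterol, and fatty acids are built from acetyl-CoA through malonyl-CoA and are then elongated and desaturated. The transcription factor SREBP2 switches on the cholesterol genes and SREBP1c many of the fatty acid genes, and both are held in the endoplasmic reticulum by INSIG proteins when sterols are plentiful. Myelin is rich in cholesterol and long-chain lipids, and because lipoprotein cholesterol does not cross the blood-brain barrier, oligodendrocytes make much of their own.

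Sequence upstream of the RefSeq start was held in the reference table for 17 of the 21 cholesterol genes and 6 of the 9 fatty acid genes (assembly GRCm38.p6). The reference table held no entry for Fdps, Fdft1, Sqle, Stard4, Scd1, Scd2 and Fads1. Stretches from 4 genes are shown because they are read against the results below: Hmgcs1, the only gene of the 23 searched with an exact sterol element, Hsd17b7 and Insig1, whose levels differed most between libraries, and Elovl6, which ran opposite to them. Capitals mark matches on either strand to the sterol regulatory element TCACNCCAC bound by SREBP, to CCAAT, which NF-Y binds, to GGGCGG, which Sp1 binds, and to the E-box CACGTG. A match on the opposite strand reads as the reverse complement, and no matches overlap. Each runs 5′ to 3′ in the direction of transcription and ends at the base before the start. Hmgcs1 lies on the plus strand at chr13:119690101-119690350, Hsd17b7 on the minus strand at chr1:169969206-169969455, Insig1 on the plus strand at chr5:28071162-28071411 and Elovl6 on the plus strand at chr3:129532136-129532385.
Hmgcs1: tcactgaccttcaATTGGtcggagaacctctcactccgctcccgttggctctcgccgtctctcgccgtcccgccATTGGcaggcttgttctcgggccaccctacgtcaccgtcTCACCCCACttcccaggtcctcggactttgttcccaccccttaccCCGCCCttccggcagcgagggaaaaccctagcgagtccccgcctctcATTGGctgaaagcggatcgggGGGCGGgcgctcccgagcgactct
Hsd17b7: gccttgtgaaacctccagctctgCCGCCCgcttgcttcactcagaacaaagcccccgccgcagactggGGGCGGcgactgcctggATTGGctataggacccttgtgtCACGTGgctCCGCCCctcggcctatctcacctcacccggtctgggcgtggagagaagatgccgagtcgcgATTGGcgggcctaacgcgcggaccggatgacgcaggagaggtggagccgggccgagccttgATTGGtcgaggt
Insig1: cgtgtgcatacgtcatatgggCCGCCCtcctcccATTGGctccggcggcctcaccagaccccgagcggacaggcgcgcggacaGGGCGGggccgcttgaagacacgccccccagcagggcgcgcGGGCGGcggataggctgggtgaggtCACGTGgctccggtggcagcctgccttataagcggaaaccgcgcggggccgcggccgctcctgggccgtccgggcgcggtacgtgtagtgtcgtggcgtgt
Elovl6: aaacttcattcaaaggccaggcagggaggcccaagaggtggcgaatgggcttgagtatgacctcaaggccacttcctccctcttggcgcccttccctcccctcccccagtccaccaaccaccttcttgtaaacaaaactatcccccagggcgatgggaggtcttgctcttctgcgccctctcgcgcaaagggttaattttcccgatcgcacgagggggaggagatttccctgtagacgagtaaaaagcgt

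In the whole windows, which also run a short way past the start, CCAAT was found in 16 of 17 cholesterol genes (94.1%) and 3 of 6 fatty acid genes, against 41.1% of the 27025 genes in the table. GGGCGG had the same counts among the genes described, 16 of 17 and 3 of 6, against 38.2% of all genes. The E-box was found in 4 of 17 cholesterol genes (23.5%) and 0 of 6 fatty acid genes, against 8.09% of all genes. The exact sterol element was present in 1 of 17 (5.88%) and 0 of 6, against 1.44% of all genes. When 1 mismatch was allowed, it was present in 9 of 17 cholesterol genes (52.94%) and 1 of 6 fatty acid genes (16.67%), against 26.7%. Elovl6 and Acaca held none of the 4 exact motifs. These are letter matches only, and genes with several starts were counted as holding a motif if any window did.

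The libraries held between 12837463 and 17962339 counts, and the 30 genes took 0.897% to 1.10% of the counts in PE libraries and 0.915% to 1.23% in control libraries. Levels within a gene are given as CPM, the count scaled to the TMM-adjusted library size. OPC markers summed to 11378 to 14872 CPM in PE libraries and 11842 to 15404 CPM in control libraries over 10 genes, with Ptprz1, Gpr17 and Tnr the highest by mean over the controls. This list is mixed, so its sum does not follow each gene. Gpr17 had 4587 CPM in control 1 and 692 CPM in control 4, and Tnr had 3394 and 1202 CPM. Ptprz1 went the other way, with 1925 and 3086 CPM, as did Pdgfra, with 1343 and 2256 CPM. Markers of committed precursors (Bcas1, Fyn and Nkx2-2 among 9 measured genes) summed to 1751 to 3340 CPM in PE libraries and 1708 to 4658 CPM in control libraries. Those of maturing oligodendrocytes (Cnp and Mbp among 13) summed to 1735 to 2952 and 1695 to 5016 CPM, with Ermn and Aspa averaging under 1 CPM in control libraries. Astrocyte markers summed to 1283 to 1839 CPM in PE libraries and 1233 to 1812 CPM in control libraries. The sums for neuronal markers were 997 to 1101 CPM in PE libraries and 1027 to 1042 CPM in control libraries. Map2 made up most of these sums, with a mean of 943 CPM over the controls, and Tubb3 came next with 39.3 CPM. Microglial markers reached at most 107 CPM in PE and 97.7 CPM in control libraries, with Aif1, P2ry12 and Tmem119 averaging under 1 CPM in controls. Endothelial markers reached at most 49.5 and 37.0 CPM, and mural and fibroblast markers at most 152 and 149 CPM. No measured marker was at 0 in every library.

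All 30 genes were detected in untreated OPCs, and their levels spanned from 4.00 to 547.65 FPKM (CPM divided by the length of the merged exons in kilobases, mean over the 4 control libraries). The stearoyl-CoA desaturase Scd2, which makes monounsaturated fatty acids, stood first with 548 ± 83.4 FPKM (SD, n = 4), above 99.9% of tested genes. Hmgcs1, which makes HMG-CoA at the head of the mevalonate route, followed with 265 ± 44.4 FPKM. Neither overlapped the next gene in the order within 1 SD. Scd1 (108 ± 15.9 FPKM), the lanosterol demethylase Cyp51 (106 ± 6.45 FPKM), the citrate lyase Acly (102 ± 5.44 FPKM) and the fatty acid synthase Fasn (96.8 ± 9.52 FPKM) came next, and within 1 SD Scd1 overlapped Cyp51, Cyp51 overlapped Acly and Acly overlapped Fasn. Over the whole order, 24 of the 29 neighbouring pairs overlapped within 1 SD.

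By merged exon length, the lowest levels were those of enzymes that act in the same routes. The isopentenyl diphosphate isomerase Idi1 had 4.00 ± 0.492 FPKM, the acetyl-CoA carboxylase Acaca 5.23 ± 1.41 FPKM, the sterol reductase Tm7sf2 7.83 ± 2.01 FPKM and the farnesyl diphosphate synthase Fdps 9.20 ± 0.695 FPKM (SD, n = 4 for each). The regulators lay between, with Insig1 at 63.4 ± 27.5, Srebf2 at 57.7 ± 4.38 and Srebf1 at 13.6 ± 2.15 FPKM. The median was 30.8 FPKM over the 21 cholesterol genes and 74.2 FPKM over the 9 fatty acid genes, beside 6.16 FPKM over the 15894 tested genes with an annotated length. The summed level of the 21 genes divided by that of the 9 was 0.935, 0.914 and 1.01 in PE 2, 3 and 4, and 1.02, 1.01, 0.858 and 0.943 in control 1 to 4, so the ratio overlapped between groups. Levels between genes depend on the length used. With the median transcript length in place of merged exons, Fasn stood first, followed by Scd2, Scd1, Cyp51 and Hmgcs1, and the medians were 108.72 and 308.507 FPKM. Acaca then had 84.3 FPKM, above Mvd (39.7 FPKM) and Mvk (51.5 FPKM), while Idi1 stayed lowest at 18.8 FPKM.

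**Figure D1:**
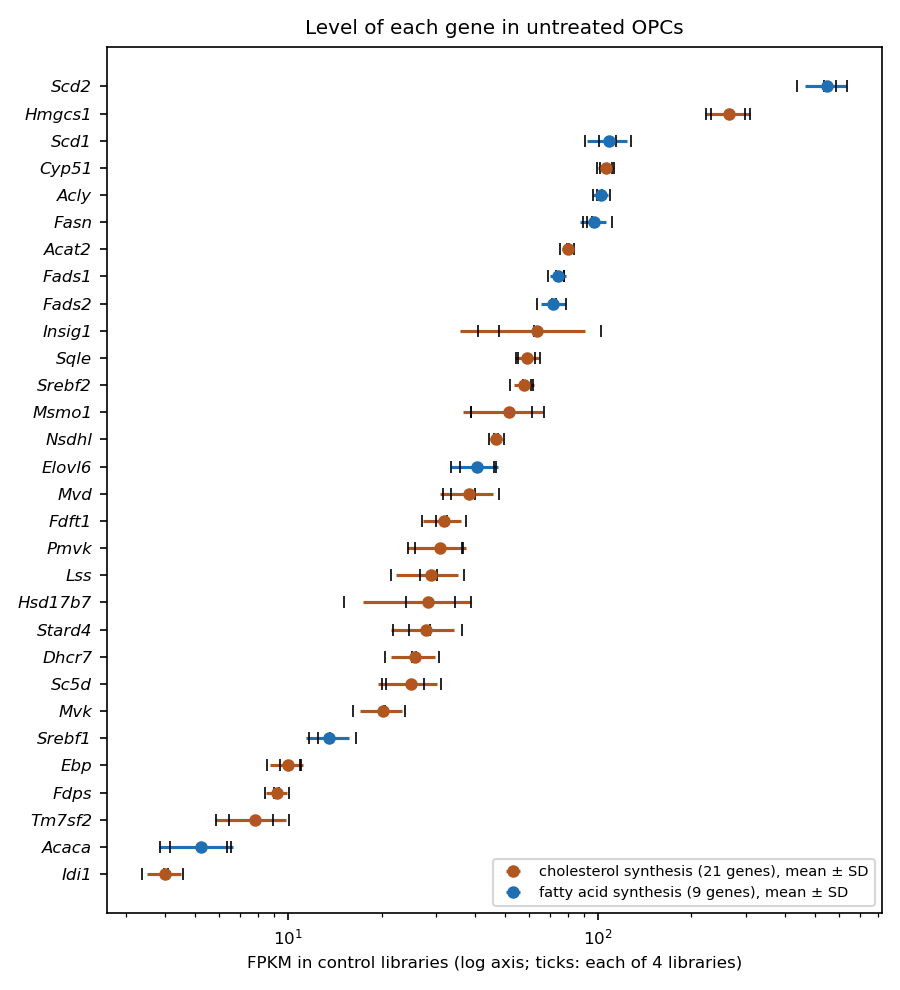
Level of each of the 30 genes in untreated OPCs, as FPKM on a log axis, with the mean and SD over 4 control libraries (points and bars) and each library (ticks). Scd2 and Hmgcs1 lie above the rest, and Idi1 is lowest at 4.00 FPKM.

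After 1 hour of PE none of the 30 genes passed the test, in either direction. The edgeR quasi-likelihood test called 0 of 30 without the pairs, where the same test called 0% of all tested genes, and 0 of 30 within pairs, where it called 0.54% of all tested genes, 0.502% higher and 0.0377% lower in PE (Benjamini-Hochberg adjusted p under 0.05). At an unadjusted p under 0.05 the counts were also 0 of 30 in both fits, beside 0.446% of all genes without the pairs and 5.76% within pairs. DESeq2 with and without the pairs and limma-voom with the pairs called 0 of 30 as well. In 0 of 30 genes did the PE libraries lie wholly above or below the control libraries, against 1.26% of tested genes. The smallest adjusted p within pairs was 0.906, for Insig1.

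The differences were small, and their intervals give the size of average change that these pairs still allow. Within pairs the log2 changes of PE over control ran from -0.06 ± 0.06 (SE) for Nsdhl, a sterol dehydrogenase, to 0.14 ± 0.11 for Idi1. The 95% intervals of all 30 lay between -0.18 and 0.37, where the lower end belongs to Nsdhl (-0.18 to 0.06) and the upper to Idi1 (-0.08 to 0.37), the gene with the fewest counts. The SD of the 3 pair ratios was 0.18 for Nsdhl and 0.20 for Idi1. For Fasn the interval was -0.08 to 0.08, for Hmgcs1 -0.06 to 0.11 and for Scd2 -0.09 to 0.05. The median change within pairs was 0.02 over the cholesterol genes and 0.00 over the fatty acid genes, beside 0.00 over all tested genes. Without the pairs these medians were -0.08, -0.01 and 0.01, and 14 of the 30 genes had the opposite sign in the 2 fits. Leaving out pair 2 changed the count of calls. Msmo1 (0.21, adjusted p = 0.000314) and Insig1 (0.19, adjusted p = 0.00755) then passed the edgeR test within pairs among 253 genes of the whole table, whereas across the other fits with pairs their adjusted p ran from 0.774 to 1.00 for Msmo1 and from 0.618 to 1.00 for Insig1.

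Each pair is 1 PE library over 1 control library, and the 3 pairs moved the cholesterol genes in different ways. In pair 3 all 21 cholesterol genes were higher in PE, with a median log2 ratio of 0.15, where 50.4% of all tested genes were higher. In pair 2, 20 of 21 were lower in PE, with a median of -0.07, where 49.4% of all tested genes were lower. In pair 4, 9 of 21 were higher in PE (47% of all tested genes), a count that became 13 of 21 with upper quartile scaling or with no scaling beyond library size. Those other scalings left the counts in pairs 2 and 3 as they were. The fatty acid genes were higher in PE in 6 of 9 cases in pair 2 (50.6% of all tested genes), 8 of 9 in pair 3 and 0 of 9 in pair 4, with medians of 0.01, 0.03 and -0.07. With no scaling beyond library size the first 2 of these counts were 4 and 7 of 9. No gene of the 30 kept one direction over the 3 pairs, which 25.4% of tested genes did, although 1 of the 30, Elovl6, did with no scaling beyond library size. With 1 library on each side these ratios have no error of their own.

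**Figure D2:**
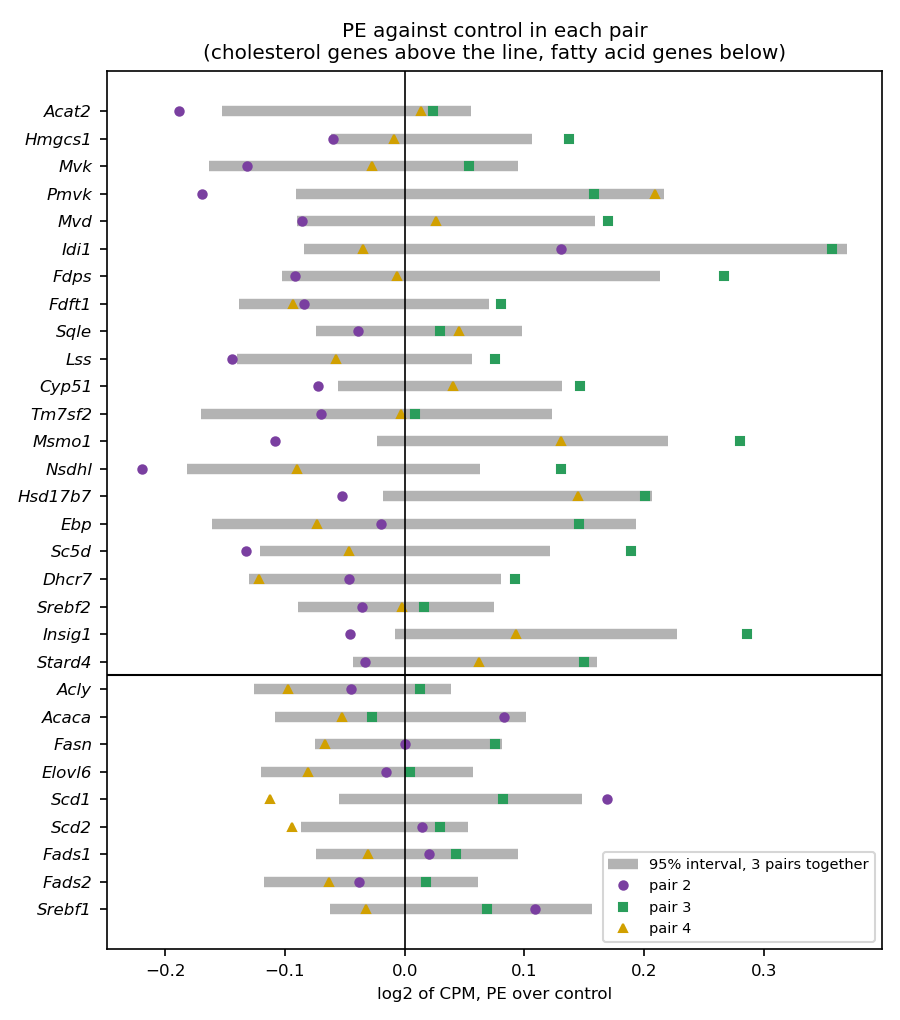
Log2 ratio of PE over control for each gene in pairs 2, 3 and 4 (symbols), with the 95% interval from the fit over the 3 pairs (grey bars), on a linear axis with 0 marked. Cholesterol genes are above the line and fatty acid genes below, and the pair 3 squares of all 21 cholesterol genes lie right of 0 while every grey bar crosses it.

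Far larger differences separated the replicate numbers, whatever the treatment. In a model with number and treatment, 24 of the 30 genes differed between numbers (edgeR quasi-likelihood test over the 3 number terms, adjusted p under 0.05), beside 68.3% of all tested genes. Of the 21 cholesterol genes 16 passed, all with number 4 below number 2, a direction found with a call in 34.4% of all tested genes. Of the 9 fatty acid genes 8 passed, 4 with number 4 below number 2 and 4 above it, a direction found in 33.9% of all tested genes. The test does not compare number 4 with number 2 alone. Each adjusted p given below beside a difference between numbers is that of the 3 number terms together. Among the genes counted as above, Fasn and Srebf1 had log2 differences of only 0.01 and 0.06 between these numbers. The median log2 difference of number 4 over number 2 was -0.32 over the cholesterol genes and 0.01 over the fatty acid genes, beside 0.00 over all tested genes. The 6 genes that did not pass were Acat2, Idi1, Fdps, Cyp51, Nsdhl and Acly. In bulk RNA fewer cells of a type and less RNA per cell cannot be told apart.

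In the first steps of the mevalonate route, numbers 1 and 2 stood above numbers 3 and 4 for 3 of 7 genes, beside 25.2% of all tested genes. Hmgcs1 had 1308, 1167 and 1017 CPM in PE 2, 3 and 4, against 1421, 1363, 1061 and 1024 CPM in control 1, 2, 3 and 4. All libraries of numbers 3 and 4 lay below every library of numbers 1 and 2, and the log2 difference of number 4 over number 2 was -0.39 (adjusted p = 3.49e-06). Pmvk, the phosphomevalonate kinase, had 55.7, 46.6 and 50.9 CPM in PE 2, 3 and 4, against 62.5, 62.7, 41.8 and 44.0 CPM in control 1, 2, 3 and 4. Mvd, the mevalonate diphosphate decarboxylase, had 70.3, 66.03 and 63.6 CPM in PE 2, 3 and 4, against 89.2, 74.6, 58.7 and 62.5 CPM in control 1, 2, 3 and 4. Both followed the same division by number, with adjusted p = 0.000566 and 0.000244 and with PE and control overlapping. Mvk, the mevalonate kinase, had 50.3, 56.6 and 42.4 CPM in PE 2, 3 and 4, against 63.6, 55.1, 54.5 and 43.2 CPM in control 1, 2, 3 and 4. Its number 4 libraries were the lowest and control 1 the highest (adjusted p = 0.000263).

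The other 3 enzymes of this stretch did not pass the test between numbers. Acat2, the cytosolic thiolase that joins acetyl-CoA units, had 180.2, 216 and 204 CPM in PE 2, 3 and 4, against 192, 205, 212 and 202 CPM in control 1, 2, 3 and 4. Idi1 had 15.3, 15.2 and 14.0 CPM in PE 2, 3 and 4, against 16.0, 13.9, 11.8 and 14.3 CPM in control 1, 2, 3 and 4. Fdps had 36.9, 42.5 and 37.7 CPM in PE 2, 3 and 4, against 42.3, 39.3, 35.3 and 37.9 CPM in control 1, 2, 3 and 4. All libraries of Acat2 lay within a 1.20-fold range, and those of Fdps likewise (1.20-fold), while control 3 was lowest for Idi1 and Fdps. Log2 changes with PE within pairs were -0.05 ± 0.05 for Acat2, 0.14 ± 0.11 for Idi1 and 0.06 ± 0.07 for Fdps. Of the exon bases of Fdps, 26.7% also belong to Gm43738, which had 0 CPM.

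From squalene to lanosterol, all 3 genes differed between numbers, beside 68.3% of all tested genes. Fdft1, the squalene synthase, had 130.0, 120.3 and 119 CPM in PE 2, 3 and 4, against 158, 138, 114 and 126 CPM in control 1, 2, 3 and 4. Sqle, the squalene epoxidase and a rate-controlling step, had 337, 308 and 315 CPM in PE 2, 3 and 4, against 359, 346, 302 and 305 CPM in control 1, 2, 3 and 4. Control 1 and control 2 were the highest libraries of both genes, with adjusted p = 0.000873 and 0.00481. Lss, which closes squalene epoxide into lanosterol, had 295, 303 and 222 CPM in PE 2, 3 and 4, against 398, 326, 287 and 231 CPM in control 1, 2, 3 and 4. Its number 4 libraries were lowest and control 1 highest, a 1.79-fold range (adjusted p = 5.87e-07). Of the exon bases of Fdft1, 18.3% overlap Ctsb, which averaged 319 CPM in control libraries, so its counts are less certain than the others.

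Among the 8 enzymes that turn lanosterol into cholesterol were both the steepest and the flattest genes. Hsd17b7, a ketosteroid reductase in the removal of the methyl groups at carbon C4, had 170.3, 141 and 85.4 CPM in PE 2, 3 and 4, against 199, 177, 122 and 77.2 CPM in control 1, 2, 3 and 4. Number 4 was lowest in PE and in control alike, number 2 was above number 3 in both, and number 4 was at 0.468 times the level of number 2 (log2 -1.10, adjusted p = 1.60e-09). Its PE and control values overlapped, and the PE change within pairs was 0.09 ± 0.05 (adjusted p = 0.919). Nsdhl, which acts in the same demethylation complex, had 121, 139 and 128 CPM in PE 2, 3 and 4, against 132, 141, 127 and 136 CPM in control 1, 2, 3 and 4. Its libraries spanned only a 1.16-fold range, and the numbers did not pass the test (adjusted p = 0.973). Msmo1, the methyl oxidase of that complex, had 349, 289 and 261 CPM in PE 2, 3 and 4, against 412, 376, 238 and 238 CPM in control 1, 2, 3 and 4. Numbers 1 and 2 lay above numbers 3 and 4 in all libraries (number 4 over number 2 -0.54, adjusted p = 1.16e-06). In pairs 2, 3 and 4 its log2 ratios of PE over control were -0.11, 0.28 and 0.13.

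The other enzymes of this stretch also differed in how far they varied. Cyp51, which removes the methyl group at carbon C14, had 464, 486 and 462 CPM in PE 2, 3 and 4, against 497, 488, 439 and 449 CPM in control 1, 2, 3 and 4. Its numbers did not pass the test, with a range of 1.13-fold over the libraries. Tm7sf2, a sterol reductase, had 37.5, 28.50 and 25.7 CPM in PE 2, 3 and 4, against 44.4, 39.3, 28.3 and 25.8 CPM in control 1, 2, 3 and 4. Sc5d, the sterol desaturase, had 122, 112 and 97.5 CPM in PE 2, 3 and 4, against 151, 133, 98.0 and 101 CPM in control 1, 2, 3 and 4. For both, numbers 3 and 4 lay wholly below numbers 1 and 2, with number 4 over number 2 at -0.58 and -0.36 (adjusted p = 7.82e-06 and 3.65e-05). Of the exon bases of Tm7sf2, 12.1% overlap Vps51, which averaged 36.4 CPM in control libraries. Ebp, the sterol isomerase, had 24.8, 23.99 and 18.7 CPM in PE 2, 3 and 4, against 25.3, 25.2, 21.7 and 19.7 CPM in control 1, 2, 3 and 4. Dhcr7, which makes cholesterol from its 7-dehydro precursor, had 146, 156 and 110.1 CPM in PE 2, 3 and 4, against 178, 150.4, 146 and 119.8 CPM in control 1, 2, 3 and 4. Number 4 was lowest in both genes, and both passed (adjusted p = 0.0134 and 1.18e-05).

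The regulators of the cholesterol genes did not share a single profile. Insig1, the sterol sensor partner that retains SREBP and is itself an SREBP target, had 186, 181 and 135 CPM in PE 2, 3 and 4, against 317, 192, 148 and 127 CPM in control 1, 2, 3 and 4. Control 1 stood far above all other libraries. The log2 difference was -0.80 for number 2 over number 1 and -0.53 for number 4 over number 2 (adjusted p = 1.30e-08). Its fold range over the libraries was 2.50 and its coefficient of variation over the controls 43.3%, beside a median of 16.0% over the cholesterol genes and 19.8% over all tested genes. Stard4, a carrier of sterols between membranes, had 156, 152 and 127 CPM in PE 2, 3 and 4, against 204, 159.7, 137 and 122 CPM in control 1, 2, 3 and 4. Its control libraries had the same order as those of Insig1 (adjusted p = 2.13e-06). Srebf2, the gene of SREBP2, had 431, 439.7 and 372 CPM in PE 2, 3 and 4, against 409.8, 442, 435 and 372 CPM in control 1, 2, 3 and 4. Only its number 4 libraries were low, and number 4 over number 2 was -0.23 (adjusted p = 0.00116).

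Among the fatty acid genes, Acaca and Elovl6 ran opposite to Scd1, Scd2 and Fads2. Acaca, which makes malonyl-CoA, had 75.0, 109.7 and 104 CPM in PE 2, 3 and 4, against 66.1, 70.9, 112 and 108 CPM in control 1, 2, 3 and 4. All libraries of numbers 3 and 4 lay above those of numbers 1 and 2, with number 4 over number 2 at 0.54 (adjusted p = 1.63e-07). Elovl6, which lengthens palmitate to stearate, had 213, 298 and 285 CPM in PE 2, 3 and 4, against 229.7, 215, 297 and 301 CPM in control 1, 2, 3 and 4. It showed the same division (0.45, adjusted p = 1.01e-06). Such genes, with numbers 3 and 4 wholly above, made up 26.4% of all tested genes. Fasn, which assembles palmitate, had 978, 1275 and 959.7 CPM in PE 2, 3 and 4, against 1044, 978, 1210.1 and 1005 CPM in control 1, 2, 3 and 4. The number 3 libraries were highest in both groups, at 0.35 over number 2, while number 4 over number 2 was 0.01. The edgeR test over the 3 number terms together gave adjusted p = 1.25e-05. Acly, which supplies cytosolic acetyl-CoA, had 493, 528 and 507 CPM in PE 2, 3 and 4, against 575, 508, 523 and 542 CPM in control 1, 2, 3 and 4. It did not pass (adjusted p = 0.0924).

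The desaturases Scd1 and Scd2, neighbours on chromosome 19, were lowest in number 4. Scd1 had 629, 522 and 409.8 CPM in PE 2, 3 and 4, against 622, 559.5, 493 and 443 CPM in control 1, 2, 3 and 4. Scd2 had 3226, 2975 and 2245 CPM in PE 2, 3 and 4, against 3463, 3193, 2916 and 2397 CPM in control 1, 2, 3 and 4. In both genes numbers 3 and 4 lay wholly below numbers 1 and 2, and number 4 over number 2 was -0.48 and -0.47 (adjusted p = 6.05e-06 and 1.09e-07). Reads of close copies are a small matter for them by count, since Scd3 and Scd4 averaged 0.257 and 0.440 CPM in control libraries. Fads1 and Fads2, the desaturases of polyunsaturated fatty acids, are also neighbours on chromosome 19. Fads1 had 357, 385 and 324 CPM in PE 2, 3 and 4, against 372, 352, 374 and 331 CPM in control 1, 2, 3 and 4. Fads2 had 254, 236 and 200.4 CPM in PE 2, 3 and 4, against 241, 260.4, 234 and 209 CPM in control 1, 2, 3 and 4. Number 4 was lowest in both, with number 4 over number 2 at -0.11 and -0.33 (3 number terms together, adjusted p = 0.00598 and 0.000363). Srebf1, the gene of SREBP1, had 75.8, 97.9 and 75.1 CPM in PE 2, 3 and 4, against 65.6, 70.3, 93.3 and 76.8 CPM in control 1, 2, 3 and 4. Number 3 was highest in both groups (number 3 over number 2 0.39, adjusted p = 5.54e-05).

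**Figure D3:**
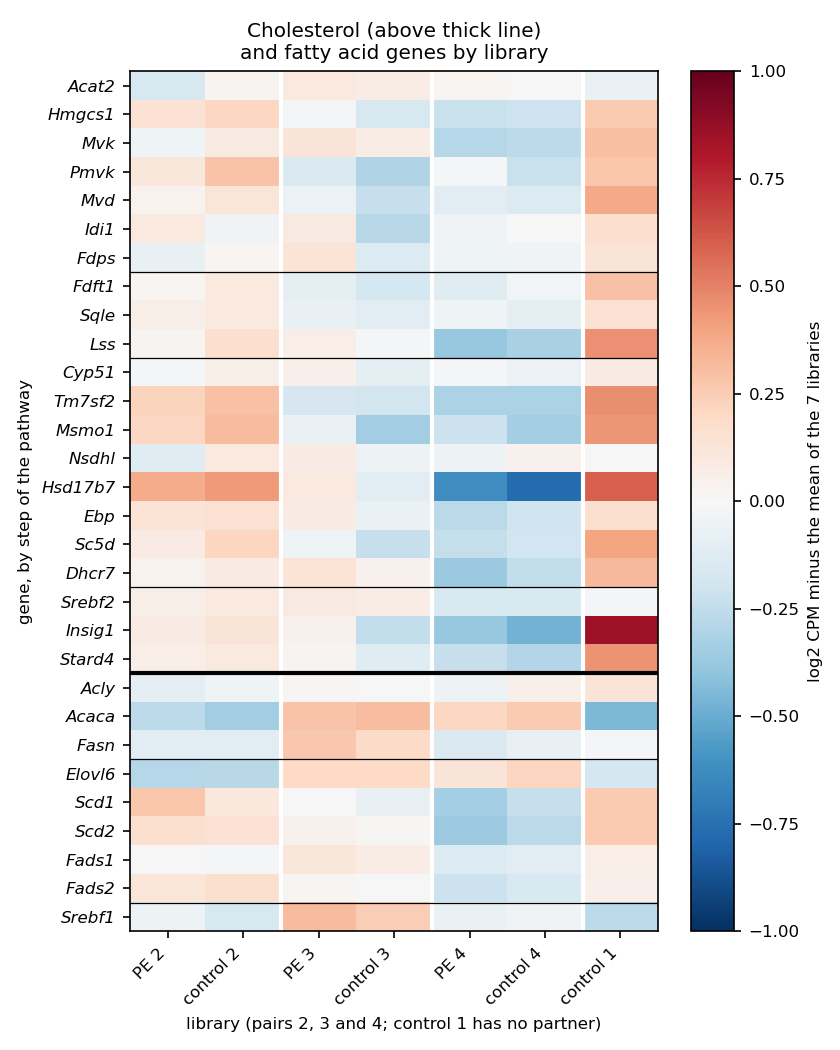
Log2 CPM of each gene minus its mean over the 7 libraries, with PE left of control in each pair and the unpaired control 1 at the right; red is above and blue below the mean. Hsd17b7 and Insig1 show the widest span, and Acaca and Elovl6 run opposite to most cholesterol genes.

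Across these genes, 12 cholesterol genes had all libraries of numbers 3 and 4 below all of numbers 1 and 2, as did Scd1, Scd2 and Fads2. That is 15 of 30 genes, where 25.2% of all tested genes did the same. With upper quartile scaling 14 cholesterol genes did. Some calls were lost when 1 number was left out. Without number 3, 20 of the 30 genes passed, beside 59.5% of all tested genes. Without number 4, 21 of the 30 passed, beside 60.4%. With all numbers these were 24 of 30 and 68.3%. Without number 3 the genes Sqle, Fasn, Fads1 and Srebf1 no longer passed (adjusted p = 0.0744, 0.697, 0.154 and 0.260). Without number 4 the genes Mvk, Ebp, Srebf2, Fads1 and Fads2 no longer passed (adjusted p = 0.0688, 0.418, 0.313, 0.140 and 0.0934), all in the same edgeR test. Genes that had not passed gained a call in some fits, namely Cyp51 without number 2 (adjusted p = 0.00309) and Acat2 and Acly without number 4 (adjusted p = 0.00751 and 0.0195). Acat2 and Acly also passed with no low-count filter (adjusted p = 0.0200 and 0.0264), and Acly with no treatment term (adjusted p = 0.0431).

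Markers of lineage stage and of other cell types also differed between numbers. Beside them stand 68.3% of all tested genes that passed and 34.4% that passed with number 4 below number 2. All 9 committed precursor genes passed the test between numbers with number 4 below number 2, and their median log2 difference was -1.20. All 13 maturing oligodendrocyte genes passed, 9 of them with number 4 below number 2, with a median of -0.41. For Bcas1 the levels were 1910.2, 1054 and 843 CPM in PE 2, 3 and 4, against 2930.0, 1867, 1086 and 804 CPM in control 1, 2, 3 and 4. Numbers 1 and 2 were the highest, as in most cholesterol genes, but the span was wider. The OPC markers split, all 10 passing, with 6 higher and 4 lower in number 4 than in number 2. Of the astrocyte markers all 10 passed, 7 with number 4 below number 2 (median -0.73). Of 9 neuronal markers 7 passed, 6 with number 4 below (median -0.49). Of 6 endothelial markers 5 passed, all with number 4 below (median -1.32), and all 8 mural and fibroblast markers passed with number 4 below (median -0.72). Of 8 microglial markers 7 passed, 3 with number 4 below and 4 above (median -0.05). Whether the marker differences play a part in those of the lipid genes was not tested. Between PE and control within pairs, 1 of 10 OPC markers (Olig2, -0.19 ± 0.04, adjusted p = 0.0334) and 1 of 9 neuronal markers (Gad1, 0.83 ± 0.13, adjusted p = 0.00585) passed. Beside these counts, 0.54% of all tested genes passed, 0.502% higher and 0.0377% lower in PE. No other neuronal marker passed, and the median change over the 9 was 0.07. No committed precursor or maturing oligodendrocyte marker passed.

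**Figure D4:**
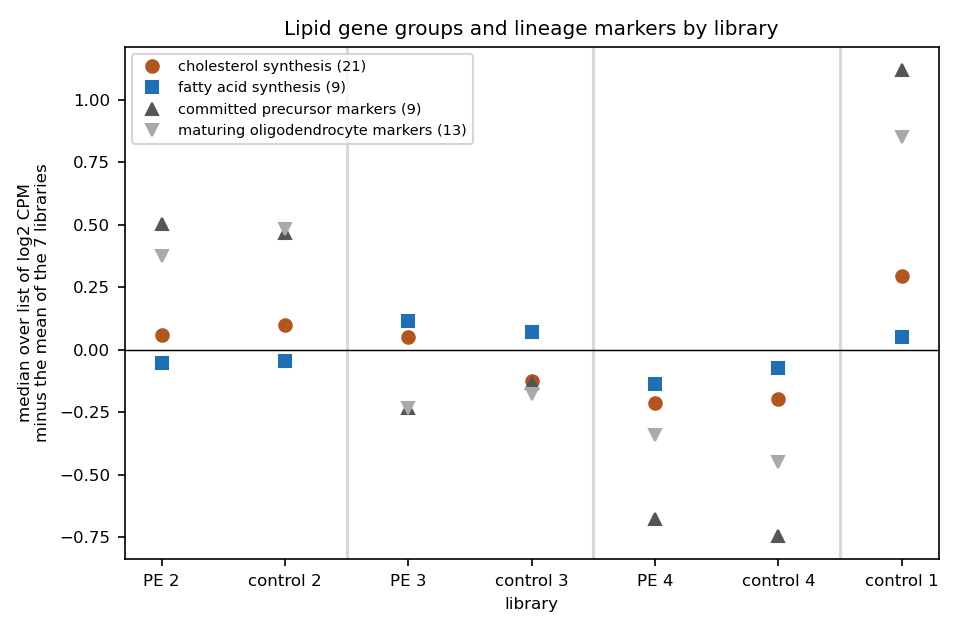
Median over each gene list of log2 CPM minus the 7-library mean, by library, with PE left of control in each pair. The marker lists for committed precursors and maturing oligodendrocytes span more than the cholesterol list, whose highest point is control 1, and the fatty acid list does not share that order.

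Other genes of sterol handling were read from a list of 22, of which 21 were tested, and they likewise had 0 calls with PE. Between numbers 20 of the 21 passed, 17 with number 4 below number 2, beside 68.3% and 34.4% of all tested genes. The liver X receptor Nr1h3, which senses oxysterols and drives sterol export, had a PE change of 0.42 ± 0.23 (adjusted p = 0.916). Rnf139, a ubiquitin ligase of sterol control, had -0.09 ± 0.06 (adjusted p = 0.951). Of 25 further fatty acid genes, 23 were tested and 0 passed with PE, while 18 passed between numbers, 14 with number 4 lower, beside the same 68.3% and 34.4%. The acyl-CoA synthetases Acsl3 and Acsl4, which activate fatty acids, had 0.14 ± 0.05 and 0.14 ± 0.05 (adjusted p = 0.516 and 0.545). Mid1ip1, which binds and activates acetyl-CoA carboxylase, had -0.16 ± 0.06 (adjusted p = 0.633). Elovl4, the elongase of very long chains, had -0.07 ± 0.05 (adjusted p = 0.978). At an unadjusted p under 0.05 the counts were 2 of 21 and 3 of 23, beside 5.76% of all genes.

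Genes that use isoprenoids branch off the mevalonate route at farnesyl diphosphate, and 0 of 12 passed with PE. Only 1 of the 12 had an unadjusted p under 0.05 within pairs, beside 5.76% of all tested genes. That gene was Pdss2, of ubiquinone side chain synthesis, which had 11.7, 13.9 and 13.8 CPM in PE 2, 3 and 4, against 9.99, 11.2, 10.6 and 10.5 CPM in control 1, 2, 3 and 4. The PE libraries all lay above the control libraries, and the 2 groups did not overlap in 1.26% of all tested genes. The change of Pdss2 within pairs, 0.30 ± 0.11, did not pass (adjusted p = 0.662). Dhdds and Dolk, of dolichol synthesis, had -0.09 ± 0.07 and 0.08 ± 0.08, and Coq2, which joins the ubiquinone ring to its tail, had 0.08 ± 0.08 (adjusted p = 0.978, 0.985 and 0.982). Between numbers 6 of the 12 passed, 4 with number 4 below number 2, beside 68.3% and 34.4% of all tested genes.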

How the data were processed

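Gene-level whole-number counts, as the authors deposited them, were used for 7 bulk RNA sequencing libraries. They were made with HTSeq, STAR and bcl2fastq 2.17 on builds GRCm38 and mm10, per the submitters' processing notes. For the annotation release, strand setting and filters of the counting, nothing is given in the sources used here. The kits were SMART-Seq v4 and Nextera XT, per the labels' protocols, and do not mark strand, so overlapping and antisense genes cannot be told apart. The same protocols describe tamoxifen, virus and immunoprecipitation, which do not match wild-type primary cells, and whether they applied is unknown. The table had 48795 gene identifiers, 48349 with a symbol, 0 rows without a gene and 0 unmapped columns of values.

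Groups and replicate numbers came from the sample titles. No source says that the replicates are separate cultures or animals, so the p-values reflect only how these samples spread, which may be technical. All were counted as separate samples, since libraries of a group differed by 12.0 to 102.8 chi-square per degree of freedom. The numbers were taken to pair the samples because the titles share a code within a number and because the deviations from the group means correlated at 0.74, 0.67 and 0.79 for numbers 2, 3 and 4, each above 0.1. Some libraries of different numbers also exceeded 0.1, with 0.67 for PE 2 and control 1, 0.36 for PE 4 and control 3 and 0.22 for PE 3 and control 4.

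Counts were analysed with edgeR 4.0.16 in R 4.3.3 (TMM, filterByExpr with minimum count 10 and minimum total 15, two-sided quasi-likelihood test, Benjamini-Hochberg adjustment over 15934 genes, threshold 0.05, prior count 2 for log2 CPM). The planned fit had treatment alone, and the fit with the replicate number as a block is printed beside it. In the blocked fit control 1 carries no weight. A fit of number and treatment tested the numbers. Standard errors came from the fold change and F statistic, pool information over all genes and can be smaller than the spread between pairs. DESeq2 1.42.0 and limma 3.58.1 (voom) were alternatives, with other scalings, no filter on low counts (beyond 1 read) and each library or number left out. FPKM used merged exons of GENCODE M21 on GRCm38. Promoter windows came from RefSeq (GRCm38.p6), and motifs were searched on both strands.

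The genes and gene lists were chosen with earlier results of these data known. Values per library were given for genes that passed either test or had the smallest p of their role. From each further pathway list up to 4 genes with the smallest p within pairs were named, and from marker lists the 3 most abundant in controls. Olig2, Gad1 and the markers averaging under 1 CPM were named with their values already seen. Some genes that the rule would name are not reported here.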

Additional observations from a re-analysis of the deposited data

How the results depend on the processing

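Calls among the 30 genes changed little with the processing, while the number of calls in the whole table changed a great deal. The planned fit called 0 genes for PE against control. The replicate block gave 86 genes, DESeq2 gave 2, DESeq2 with the block 33, limma-voom with the block 87, RLE size factors with the block 97 and no low-count filter with the block 194. Leaving out a number under the block gave 52 to 254 genes (92 without number 1 and 253 without number 2), and 0 to 2 of the 30 called higher. The 2 were Msmo1 and Insig1 without number 2. The block changed no other call among the 30. The median log2 change of the cholesterol genes ran from -0.15 to 0.07 when a library or number was left out, and was 0.0682 without number 2 under the block. That of the fatty acid genes ran from -0.0688 without PE 3 to 0.0523 without PE 4. In the test between numbers, 14 to 17 cholesterol genes and 5 to 8 fatty acid genes passed when a number was left out. In those fits 59.5% to 67.2% of all tested genes passed. The median level of the cholesterol genes was 108.72 FPKM with the median transcript length and 115.72 as TPM, and that of the fatty acid genes 308.507 FPKM and 279.39 as TPM, with the fatty acid median higher each time. Allowing 1 mismatch raised the share of cholesterol genes with the sterol element to 52.94%. Of the single-gene log2 changes over the alternatives, 446 stayed within 1 SD of the planned value and 154 did not. With 3 pairs, changes smaller than the intervals given above could not be told from 0. The lowest library count of any of the 30 genes was 183 (Idi1), so counting error is smallest where levels are high, as in Scd2. No gene among the 30 had a control library far from the other 3 by Dixon's criterion (0 of 30).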

Other observations

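Lists of myelin sphingolipid synthesis and fatty acid oxidation lie next to the genes described above. For sphingolipids, 9 of 10 listed genes were tested and 0 passed with PE within pairs (edgeR, 0 at an unadjusted p under 0.05), while 6 passed between numbers, 5 of them with number 4 below number 2, beside 68.3% and 34.4% of all tested genes. Sgms1, a sphingomyelin synthase, had 18.4, 22.2 and 17.1 CPM in PE 2, 3 and 4, against 15.9, 14.3, 17.2 and 17.98 CPM in control 1, 2, 3 and 4. The groups overlapped, and its PE change within pairs was 0.21 ± 0.10 (adjusted p = 0.906). Kdsr, an early enzyme of ceramide synthesis, had 0.14 ± 0.09 (adjusted p = 0.932), Sptlc1, a subunit of the enzyme that starts the route, had 0.11 ± 0.06 (adjusted p = 0.914) and Cers2, a ceramide synthase for very long chains, had 0.05 ± 0.05 (adjusted p = 0.978).

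For fatty acid oxidation, 0 of 12 genes passed with PE within pairs (edgeR, 0 at an unadjusted p under 0.05), and 11 passed between numbers, 10 with number 4 below number 2, beside the same 68.3% and 34.4%. Cpt2, which hands acyl groups to the mitochondrial matrix, had 37.6, 19.7 and 17.0 CPM in PE 2, 3 and 4, against 34.4, 29.8, 19.3 and 17.6 CPM in control 1, 2, 3 and 4. Numbers 1 and 2 were above numbers 3 and 4 in every library, with number 4 over number 2 at -0.96 on the log2 scale (3 number terms together, adjusted p = 9.81e-07). Etfdh and Hadhb, both of mitochondrial oxidation, had PE changes within pairs of 0.10 ± 0.05 and 0.17 ± 0.09 (adjusted p = 0.914 and 0.915).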
